A study of Mus musculus with 12 samples.

Results

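H3K27me3, trimethylation of lysine 27 on histone H3, is the mark that Polycomb repressive complex 2 writes on chromatin of silenced genes. The regions described here carried a called domain of this mark in mouse small-intestinal epithelium from embryonic stage E14.5 through to the adult, and none at stage E12.5, where E counts days of embryonic development. They were chosen by the calls themselves. Every list of enriched islands was laid on a grid of 200 bp windows, and a window was kept where both E14.5 lists and all 4 adult lists covered it and neither E12.5 list did. Adjacent windows were joined into stretches. The rule left 1150 stretches. Windows called in any of the 8 lists joined into 29391 separate runs. A run can hold several of the 1150 stretches, so these counts give no share. The stretches held 9631 of the 1860461 windows called anywhere, 0.518%, or 1.93 Mb of 372 Mb.

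The chromatin came from mice of a mixed C57BL/6 and CD1 strain, and living cells positive for the epithelial surface protein EpCAM and negative for the endothelial marker CD31 and the leukocyte marker CD45 were sorted. Embryos gave the E12.5 and E14.5 epithelium, and their sex is not given. The adults were males at postnatal day 60 carrying Lgr5EGFP-Cre-ERT, a reporter read as green fluorescence in cells that use the stem cell gene Lgr5. They gave intestinal stem cells (ISC), labelled by high Lgr5-EGFP, and enterocytes (AE), which line the villi and absorb nutrients. The gate stated for enterocytes holds no marker that separates them from other epithelial cells. Each population had 2 ChIP libraries from 250000 cells each, given as biological duplicates, and 1 input that served both as control. The lists hold no gene expression, so the sorted cell types could not be checked against their markers here.

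Polycomb repressive complex 2 contains the methyltransferase that places the mark and a subunit that binds H3K27me3 already present, so that an existing domain can spread into its neighbourhood. A new domain can also start at a CpG-rich site that was unmarked before. In the mouse gut tube, the interval between E12.5 and E14.5 ends as villi begin to form, and stem cells and enterocytes arise later from this epithelium. A stretch that is called later and touches an E12.5 island is the pattern that spreading of an island would leave, and a stretch far from any E12.5 island is the pattern of a separate domain. The lists show where islands were called, not how they came about.

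The libraries differed in how much they called, and this bears on every count below. The lists covered 62.5 and 76.0 Mb in E12.5, 75.9 and 109 Mb in E14.5, 241 and 60.8 Mb in stem cells, and 80.0 and 91.0 Mb in enterocytes. ISC replicate 1 stood apart with 17407 islands against 6668 in ISC replicate 2, and E12.5 replicate 2 had 12649 islands against 6171 in E12.5 replicate 1. Without E12.5 replicate 2 the same rule gave 2040 stretches and 6.12 Mb, without ISC replicate 2 it gave 3.25 Mb and without E14.5 replicate 1 it gave 3.24 Mb. Leaving out a list can only add length under this rule. ChIP reads inside islands numbered 1171968 to 6627853 per library. Reads outside islands are not listed, so the depth of a library and the level of the mark at uncalled positions are unknown. A window without a call may still hold the mark below the caller's threshold.

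The stretches were short. Their median length was 1.2 kb, with quartiles at 0.4 and 2.4 kb, and 176 of them (15.3%) were a single 200 bp window. At the long end, 374 reached at least 2 kb and held 67.5% of the summed length, and 58 reached at least 5 kb and held 20.1% of it. For comparison, 3 other sets of stretches were built in the same way. Those called in all 8 lists, the core, had a median of 5 kb and covered 11.0 Mb in 1676 stretches. Those called in both E14.5 lists alone had a median of 1.6 kb and covered 5.49 Mb in 2386 stretches. Those called in the 4 adult lists alone had a median of 2.6 kb and covered 4.45 Mb in 1288 stretches. The smallest gap between neighbouring stretches called from E14.5 onward was 1200 bp.

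**Figure D1:**
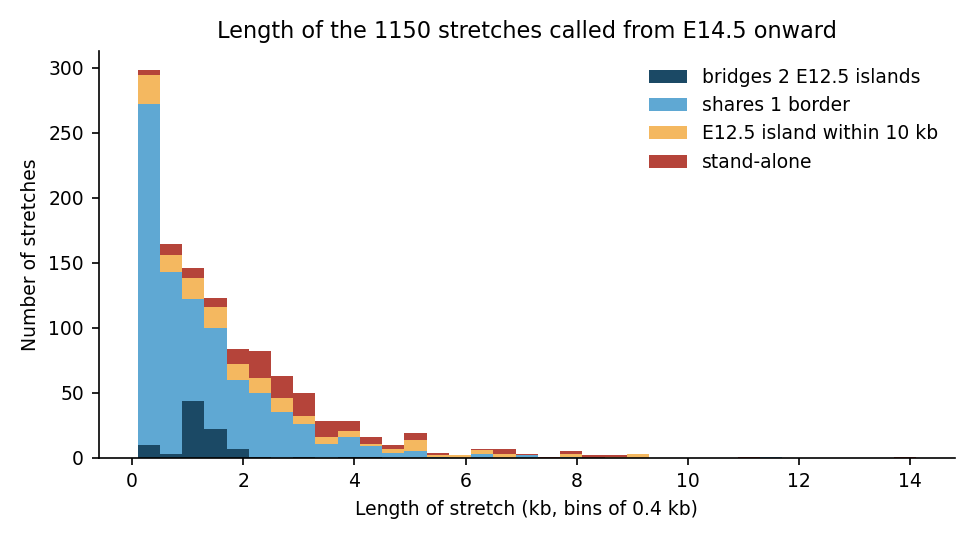
Number of stretches called from E14.5 onward by length in kb, in a stacked histogram coloured by position relative to E12.5 islands. Most of the 1150 stretches lie at the short end, with a median of 1.2 kb, and the longest is 14 kb.

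Most of the stretches touched an island that was already called at E12.5. An E12.5 island of at least 1 replicate ended exactly where the stretch began or ended in 861 of 1150 stretches, 74.9%. This was close to the background of all stretches called in both E14.5 lists and neither E12.5 list, 72.7% (4736 of 6511). No interval is given, since neighbouring stretches can share islands and are not independent. Because bordering stretches were the shorter ones, they held 1.1 Mb, 57.3% of the length. With the set rebuilt without E12.5 replicate 2, bordering stretches held 32.0% of its larger length, 6.12 Mb. Of the 861, 771 touched an E12.5 island on 1 side, with a median length of 0.8 kb and a longest of 11.6 kb. The other 90 filled the whole gap between E12.5 islands on both sides, from the same or different replicates, with a median of 1.2 kb and a longest of 4.4 kb. A further 146 stretches lay within 10 kb of an E12.5 island without touching it, with a median of 2 kb. The remaining 143 stretches, 12.4% of the number against 16.0% in that background, stood alone at more than 10 kb from any E12.5 island. They were the longest class, with a median of 2.8 kb, and held 0.455 Mb, 23.6% of the length.

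Other sets of stretches bordered E12.5 islands to different extents. By length, the share in stretches that touched an E12.5 island was 57.3% for those called from E14.5 onward, 33.0% for those called at E14.5 alone and 12.1% for those called in the adult lists alone. The shares in stretches standing alone were 23.6%, 35.8% and 62.3% in the same order. No test was made of these differences, since each set is fixed by the same lists. Among all stretches called in both E14.5 lists and neither E12.5 list, whatever the adult state, 53.5% of the length touched an E12.5 island. In that background 27.5% of the length stood alone. The stretches kept into the adult, at 57.3% and 23.6%, were close to it.

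**Figure D2:**
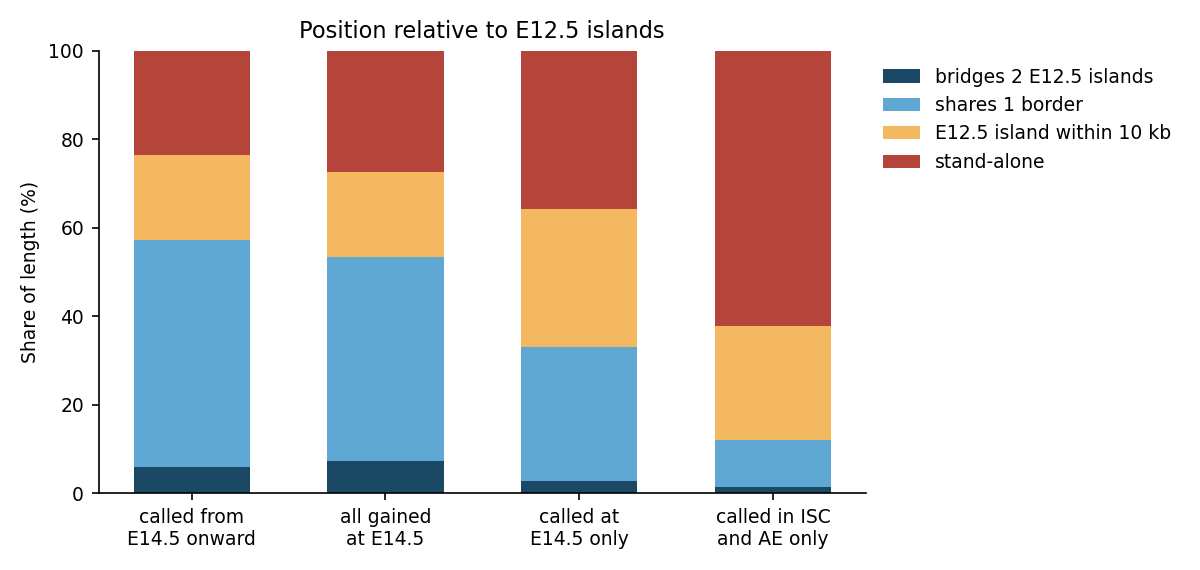
Share of summed length, in percent, in stretches that bridge E12.5 islands, touch 1, lie within 10 kb of 1 or stand alone, for the set called from E14.5 onward, for all stretches gained at E14.5 whatever the adult state, and for the sets called at E14.5 alone and in the adult lists alone. Stretches touching an E12.5 island hold 57.3% of the length called from E14.5 onward, close to the 53.5% of all length gained at E14.5, against 33.0% and 12.1% in the last sets.

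The border depended strongly on 1 embryonic list. Of the 861 bordering stretches, 691 (80.3%) touched islands of E12.5 replicate 2 alone, 105 (12.2%) touched islands of E12.5 replicate 1 alone and 65 (7.55%) touched islands of both. With the islands of E12.5 replicate 1 alone counted as flanks, 11.6% of the length bordered an E12.5 island, and with those of E12.5 replicate 2 alone 48.9% did. The touching E12.5 island overlapped an island of the other E12.5 replicate in 398 of the 861 stretches (46.2%), and it held a stretch of the 8-list core in 388 (45.1%). Among the 90 bridging stretches the overlap with the other replicate was found in 66 (73.3%).

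At the shared border itself, the later islands mostly ran on into the next window. The stretches had 951 borders with E12.5 islands, and at 939 of them (98.7%) the islands of all 6 later lists continued across. All 6 had to cover the stretch, and only the next 200 bp window was checked, so this was close to fixed by the rule. At 33 of them (3.47%) both E12.5 lists and all 6 later lists were called beyond the border. The other 1349 borders had no E12.5 island next to them and were set by the edge of at least 1 later list. ISC replicate 1, the list with the widest coverage, ended at 49 of them (3.63%), while AE replicate 2 ended at 375 (27.8%), E14.5 replicate 1 at 415 (30.8%), ISC replicate 2 at 358 (26.5%), E14.5 replicate 2 at 238 (17.6%) and AE replicate 1 at 155 (11.5%).

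Over E12.5 islands that bordered a stretch or covered core, the later islands were mostly the longer ones. Where several later islands overlapped, the longest was used. The 171 islands of E12.5 replicate 1 that bordered a stretch had a median length of 10.8 kb. The later islands over them had medians of 18.5 and 22.4 kb in E14.5, 40.4 and 15.2 kb in stem cells and 24.4 and 19.6 kb in enterocytes. The later island was the longer one in 74.9 to 98.8% of the cases, depending on the list. This must be so in part, since a bordering stretch was chosen for being called beyond the E12.5 island. For the 1212 islands of E12.5 replicate 1 that covered core and bordered no stretch, the E12.5 median was 10.6 kb, the later medians were 12.4 to 27.7 kb, and the later island was longer in 55.8 to 91.3% of the cases. The 687 bordering islands of E12.5 replicate 2 were shorter, at a median of 6 kb, and the later islands over them had medians of 12.6 and 16.6 kb in E14.5, 29 and 11.4 kb in stem cells and 16.2 and 13.4 kb in enterocytes. The E12.5 islands that neither bordered a stretch nor covered core, 4788 in replicate 1 and 10899 in replicate 2, often had no later island. Where a later island was present, it was longer in 40.8 to 75.8% of the cases for replicate 1. For replicate 2 it was longer in 64.3 to 91.6%.

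The islands that covered the stretches in the later lists were long, and a stretch was usually a small piece of its island. The median covering island measured 10.8 and 15.2 kb in E14.5, 28.7 and 10.6 kb in stem cells, and 15.6 and 11.6 kb in enterocytes. The medians over all islands of the same lists were 7 and 8.4 kb, 10.4 and 7.4 kb, and 7 and 5.2 kb. A long island is the likelier to cover any given window, so this difference carries no test. The stretch made up a median of 8.96 and 6.84% of its island at E14.5, 3.72 and 10.0% in stem cells, and 6.90 and 9.52% in enterocytes. Between 37.6 and 45.4% of the covering islands also held core, called in all 8 lists. All read counts and folds below are those of the whole covering island (the longest, where several touched a stretch), because the lists give no value for a part of an island.

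The covering islands were modestly enriched in every population. The authors' fold is the ratio of ChIP to control reads scaled by library size, and its median over the stretches was 1.78 and 2.27 in E14.5, 2.15 and 1.55 in stem cells, and 1.5 and 1.63 in enterocytes. The medians over all islands were 1.56 and 1.67 in E14.5, 1.46 and 1.44 in stem cells, and 1.44 and 1.52 in enterocytes. The lowest fold over any stretch was between 1.08 and 1.29 in the 6 lists, and the highest was between 3.43 and 6.08. ChIP reads per kb had medians of 39.7 and 30.6 in E14.5, 34.9 and 23.9 in stem cells and 42.2 and 28.2 in enterocytes. Over all islands the corresponding medians were 31.1 and 20.5, 23.9 and 21.9, and 34.8 and 24.4 reads per kb.

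The control reads differed less from the list's median in each of the 6 lists. Their medians under the stretches' islands were 23.4 and 23.4 reads per kb at E14.5, 21.1 and 21.3 in stem cells and 19.1 and 19.9 in enterocytes, against 21.3 and 21.5, 20.9 and 20.9, and 16.3 and 18.6 over all islands. No covering island in the 6 later lists had a control density above 2 times its list's median. The weakest calls were in AE replicate 1, where 73 stretches lay under a fold of 1.2, against 0 to 20 in the other 5 lists.

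Because fold depends on the library, each covering island was also ranked by fold among all islands of its own list, as a percentile. The median percentile over the stretches was 66.2 and 77.5 in E14.5, 92.1 and 67.3 in stem cells, and 58.1 and 65.2 in enterocytes. The adult lists averaged 70.7 ± 14.8 (SD, n = 4) and the E14.5 lists 71.9 ± 7.98 (SD, n = 2). The difference of -1.2 was smaller than the spread between lists (exact permutation test, two-sided, p = 0.933, with 0.0667 the smallest p that 15 splits allow). Its direction turned without E14.5 replicate 2, to 5.45, and without AE replicate 1, to 2.49. The ISC replicates differed most, and the gap between them was wider than that between the AE replicates. Stretches called in all 8 lists ranked higher in each of the 6 later lists, with medians of 85.4 and 89.2 in E14.5, 94.6 and 75.3 in stem cells, and 59.5 and 73.7 in enterocytes. These ranks describe the selected islands, and no test was made between the sets.

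Read density gave a measure that needs no fold. For each list, the ChIP reads per kb summed over the covering islands were divided by the same density over all islands of the list. A plain scaling of depth cancels in this ratio, but differences in how many and how weak islands a list called do not. The ratio was 1.2 and 1.36 in E14.5, 1.39 and 1.03 in stem cells, and 1.13 and 1.11 in enterocytes, so the covering islands were denser than the list's average in all 6 lists, by little in ISC replicate 2. Calls in all 6 later lists chose these islands, which may favour dense ones, so the excess carries no test. The same ratio for control reads was 1.02 and 1.02 in E14.5, 0.998 and 0.934 in stem cells, and 1.08 and 1.01 in enterocytes. The relative ChIP density averaged 1.16 ± 0.158 in the adult lists (SD, n = 4) and 1.28 ± 0.110 in the E14.5 lists (SD, n = 2). The difference of -0.113 lay within the spread between lists (exact permutation test, two-sided, p = 0.467, with 0.0667 the smallest possible). It turned to 0.178 over the 24 to 134 islands per list that lay mostly inside the stretches. AE averaged 1.12 ± 0.0103 and ISC 1.21 ± 0.258 (SD, n = 2 each), and the difference of -0.0892 lay within the gap between the ISC replicates (exact permutation test, two-sided, p = 1, with 0.333 the smallest possible). Without ISC replicate 1 it turned to 0.0685.

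Stand-alone and bordering stretches ranked differently in the embryo and in the adult. At E14.5 the median fold percentile was 49.3 and 65.6 for stand-alone stretches, against 71.6 and 80.3 for stretches bordering an E12.5 island. In ISC it was 90.0 and 70.0 for stand-alone stretches, against 92.2 and 67.3 for bordering ones. In AE it was 67.0 and 75.4 for stand-alone stretches, against 55.1 and 64.9 for bordering ones. The stand-alone stretches thus ranked lower in both E14.5 lists, higher in both AE lists, and close to the bordering ones in ISC, on either side. The difference, stand-alone minus bordering, averaged 5.67 ± 6.65 percentile points in the adult lists (SD, n = 4) and -18.5 ± 5.34 in the E14.5 lists (SD, n = 2). The adult lists exceeded the E14.5 lists by 24.1 points, and all 4 adult values were above both E14.5 values (two-sided p = 0.0667 by exact permutation, the smallest p that 15 splits allow, so the design cannot reach 0.05). Without E12.5 replicate 2 the difference was 13.1 points. This comparison was chosen after the values were seen.

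Island length went along with this contrast. Stand-alone stretches lay in islands with median lengths of 6.6 and 7.6 kb in E14.5, 14.4 and 7.4 kb in stem cells and 8.6 and 6.6 kb in enterocytes. The islands over bordering stretches had medians of 12.2 and 16.4 kb in E14.5, 30 and 11.4 kb in stem cells and 16.6 and 13 kb in enterocytes. A stand-alone stretch made up a median of 20 to 48.1% of its island over the 6 lists, and a bordering stretch 2.92 to 7.69%, so the rank of a bordering stretch is mostly that of chromatin outside it. Control reads were lower under stand-alone stretches in all 6 lists, at medians of 16.9 to 21 reads per kb against 19.6 to 24.1 for bordering stretches. The part of island length and control density in the contrast was not tested.

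**Figure D3:**
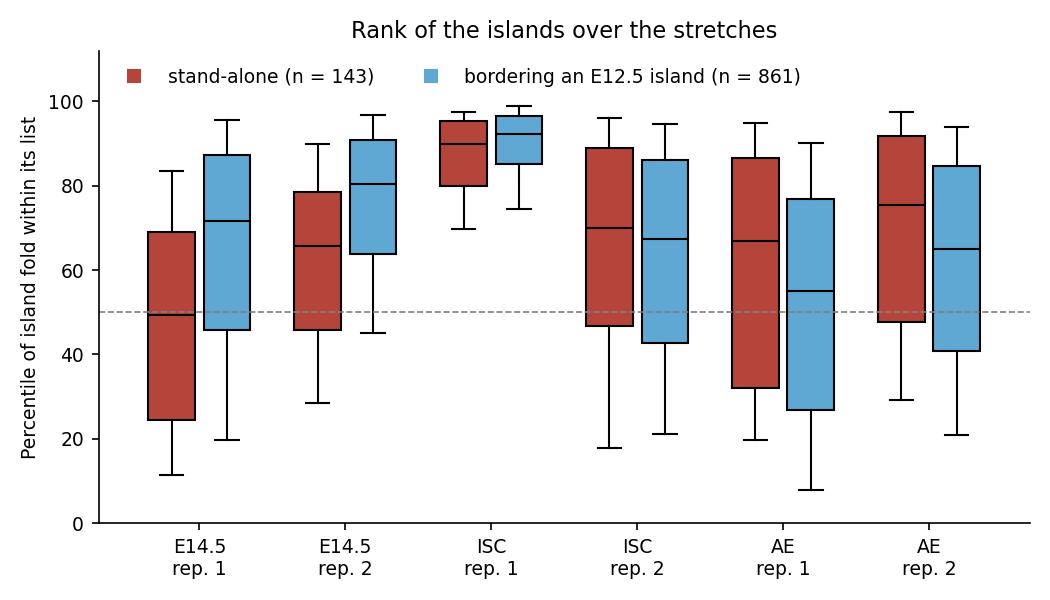
Percentile of the covering island's fold within its own list, for stand-alone stretches (n = 143) and stretches bordering an E12.5 island (n = 861), in the 6 later lists. Boxes span the quartiles with the median as a line, whiskers the 10th to 90th percentile, and the dashed line the middle of each list. Stand-alone medians are below the bordering ones at E14.5 (49.3 and 65.6 against 71.6 and 80.3) and above them in AE (67.0 and 75.4 against 55.1 and 64.9).

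Few of the windows gained by E14.5 stayed called in every adult list. Of the 18.0 Mb called in both E14.5 lists and neither E12.5 list, 10.7% was called in all 4 adult lists, and this is the set described here. A further 14.2% was called in 3 adult lists, 18.1% in 2, 26.5% in 1 and 30.5% in none. Of the 20.5 Mb called in both E14.5 lists and 1 E12.5 list, 23.8% was called in all 4 adult lists and 18.6% in none. Of the 18.6 Mb called in both E14.5 lists and both E12.5 lists, 59.3% was called in all 4 adult lists and 7.60% in none. The 10.7% depended on the libraries, at 5.64% without E14.5 replicate 1, 6.73% without E14.5 replicate 2, 17.3% without E12.5 replicate 2 and 18.1% without ISC replicate 2. The share increased with the number of E12.5 lists that already called the window.

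Windows with a stronger E14.5 island were mostly kept more often, and the order of the E12.5 states was the same at each strength. Windows were split by the lower fold of the E14.5 islands over them, a split added after the data were seen. Below a fold of 1.5, 7.73% of windows called in neither E12.5 list were called in all 4 adult lists, 15.3% of those called in 1 and 18.9% of those called in both. Between 1.5 and 2 the shares were 12.9%, 26.0% and 48.1%, and between 2 and 3 they were 14.6%, 29.2% and 67.4%. At a fold of 3 or more they were 13.5%, 35.1% and 86.3%. Windows gained by E14.5 were therefore kept in 7.73 to 14.6% across the strengths, while the share of windows called in both E12.5 lists spread from 18.9 to 86.3%. These shares are a description of neighbouring windows that share islands, and no test was made over windows.

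**Figure D4:**
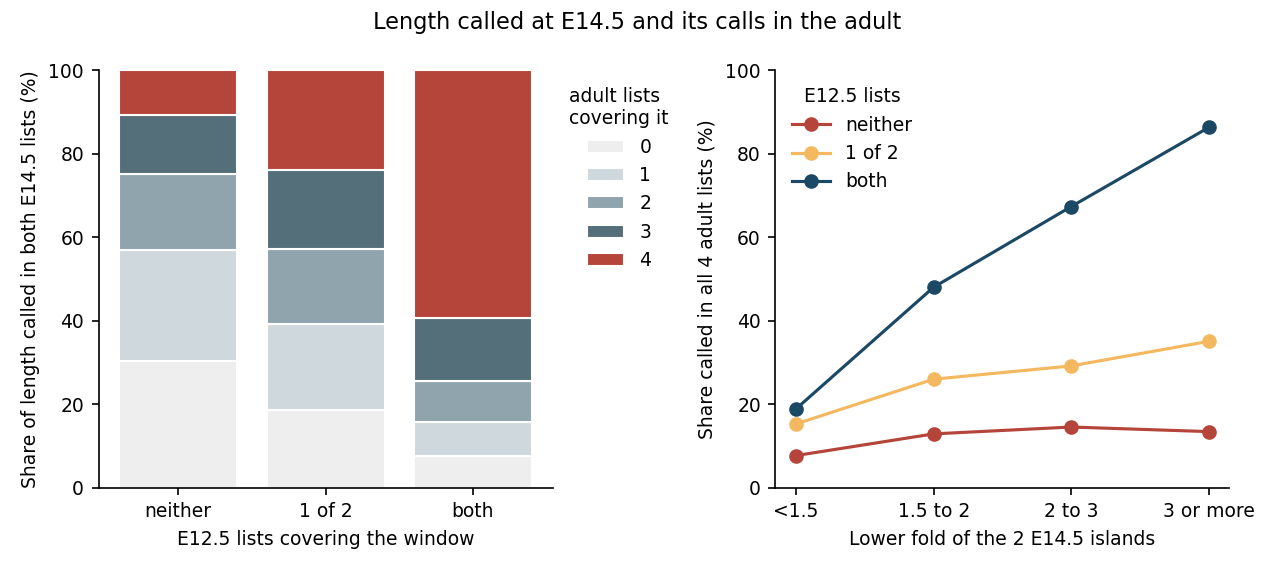
Left, share of length called in both E14.5 lists that 0 to 4 adult lists also called, in percent, by the number of E12.5 lists covering it. Right, share called in all 4 adult lists by the lower fold of the E14.5 islands. The right-hand share is lowest for windows called in neither E12.5 list in each fold class, at 7.73 to 14.6%.

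The covering islands in the later lists were mostly well inside the limit on the false discovery rate (FDR) but modest in fold. Both values are those of whole islands. They measure neither where an island's edge fell nor the absence of an E12.5 call. No island in the 8 lists had an FDR over 0.01. The highest FDR of a stretch over the 6 later lists had a median of 1.95e-06, and it was over 0.001 in 224 stretches (19.5%). The median over the stretches of the lowest fold in the 6 later lists was 1.37, with a range of 1.08 to 2.53. In 1045 stretches (90.9%) every later list had a fold of at least 1.2, in 337 (29.3%) at least 1.5, in 37 (3.22%) at least 2, and in none at least 3. The lowest fold was found in AE replicate 1 for 502 stretches (43.7%), in ISC replicate 2 for 305 (26.5%) and in the remaining lists for 3 to 174 each. The highest fold was found in E14.5 replicate 2 for 638 stretches (55.5%) and in ISC replicate 1 for 388 (33.7%). Just inside the limit, a stretch of 2.8 kb on chromosome 1 (183006601 to 183009400, mm9) was kept with an FDR of 0.00988 and a fold of 1.23 in ISC replicate 2. The lowest fold of any stretch, 1.08 in AE replicate 1, was on chromosome 17 (34820401 to 34822600).

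Just outside the rule lay more sequence than inside it. Stretches called in all 6 later lists and in E12.5 replicate 2 alone numbered 1659 and covered 4.19 Mb, and those with E12.5 replicate 1 alone numbered 555 and covered 0.698 Mb. The E12.5 islands there had a median fold of 2.29 in replicate 2, at the 82.4th percentile of its list, and 1.42 in replicate 1, at the 58.7th percentile. The E12.5 replicate 2 islands that keep most of this sequence out of the set were thus not weak calls in that list. Stretches with no E12.5 call that missed only 1 later list covered 1.32 Mb where E14.5 replicate 1 was the missing list, 1.32 Mb for ISC replicate 2, 0.721 Mb for AE replicate 2, 0.463 Mb for AE replicate 1, 0.333 Mb for E14.5 replicate 2 and 0.0496 Mb for ISC replicate 1.

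Individual stretches are given by position, since a gene annotation on the files' build was not used here and whether they lie in exons, introns or promoters was not analysed here. All coordinates are 1-based on mm9. The longest stretch, 14 kb on chromosome 7 (80532401 to 80546400), was classed as stand-alone, with the nearest E12.5 island 11.0 kb away, just over the 10 kb limit. Another stretch called from E14.5 onward, in the same 25 kb interval (80521401 to 80546400), touched an E12.5 island. ISC replicate 1 called 100% of that interval, and core lay at a distance of 0 kb from it. The following values are for the 14 kb stretch. Its covering islands held 534 ChIP and 457 control reads in E14.5 replicate 1, 434 and 489 in E14.5 replicate 2, 1930 and 1204 in ISC replicate 1, 430 and 349 in ISC replicate 2, 1030 and 533 in AE replicate 1, and 538 and 335 in AE replicate 2. The folds were 1.25 and 1.55 in E14.5, 2.05 and 1.71 in stem cells, and 1.32 and 1.85 in enterocytes. Both ISC folds were above both E14.5 folds, and the AE folds overlapped with both populations. The island of ISC replicate 1 reached 54.2 kb, whereas those of the other 5 lists measured 14.2 to 23.6 kb.

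The longest stretch that bordered an E12.5 island was 11.6 kb on chromosome 1 (140477601 to 140489200). On its left lay a 4.2 kb island of E12.5 replicate 2 with a fold of 2.90. Its later folds were 2.38 and 2.89 in E14.5, 2.23 and 1.62 in stem cells, and 2.62 and 2.10 in enterocytes. Both E14.5 folds were above both ISC folds, and the AE folds overlapped with both populations. An 8.8 kb stretch on the same chromosome (138241001 to 138249800) lay 3.4 kb from an E12.5 island and had folds of 2.37 and 2.99 in E14.5, 3.29 and 1.99 in stem cells, and 2.48 and 2.44 in enterocytes. By contrast, a 9.0 kb stretch on chromosome 13 (110801601 to 110810600) had lower folds, at 1.54 and 1.54 in E14.5, 1.88 and 1.26 in stem cells, and 1.19 and 1.28 in enterocytes. Stretches of similar length thus differed in fold.

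Bridging stretches closed gaps between islands that were already present. The longest, 4.4 kb on chromosome 15 (102863001 to 102867400), lay between islands of E12.5 replicate 2, with 17.8 kb and a fold of 3.57 on the left and 6.4 kb and a fold of 1.97 on the right. In the later lists a single island ran across this stretch, of 197.4 and 198.0 kb in E14.5, 270.2 and 127.4 kb in stem cells, and 162.6 and 23.0 kb in enterocytes. Its folds were 3.85 and 5.37 in E14.5, 4.03 and 2.32 in stem cells, and 2.36 and 2.12 in enterocytes, so both E14.5 values were above both AE values. A 4.0 kb stretch on chromosome 2 (38177601 to 38181600) joined a 3.8 kb island with a fold of 1.44 to a 57.0 kb island with a fold of 3.63, both of E12.5 replicate 2. Its later folds were 1.91 and 4.34 in E14.5, 2.69 and 1.42 in stem cells, and 1.90 and 1.57 in enterocytes, a wide spread within E14.5 and within ISC.

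Stretches of at least 2 kb were ranked by the lowest fold of their covering islands in the later lists. The top 5 included stretches that bordered an E12.5 island and stretches far from any. On chromosome 3, stretches of 2.0 kb (126564601 to 126566600), 5.2 kb (126569401 to 126574600) and, from the longest 10, 8.2 kb (126583201 to 126591400) lay together in 26.8 kb. No E12.5 list called any of that interval, and the nearest core stretch was 734.4 kb away. The 8.2 kb stretch was itself 515.2 kb from the nearest E12.5 island. Its covering islands held 297 and 222 ChIP reads over 153 and 160 control reads at E14.5, 572 and 572 over 237 and 407 in stem cells, and 1261 and 264 over 202 and 102 in enterocytes. The folds were 2.08 and 2.43 in E14.5, 3.08 and 1.95 in stem cells, and 4.28 and 2.99 in enterocytes, so both AE values were above both E14.5 values and the ISC values spanned the E14.5 range. The 5.2 kb stretch also had both AE values above both E14.5 values, with 2.41 and 2.66 in E14.5, 4.46 and 2.53 in stem cells, and 4.52 and 3.25 in enterocytes. The 2.0 kb stretch did not, with 2.41 and 2.66 in E14.5, 4.46 and 3.43 in stem cells, and 4.52 and 2.21 in enterocytes, where AE replicate 2 was below both E14.5 values. That AE replicate 2 island held 67 ChIP and 35 control reads. The 2.0 and 5.2 kb stretches lay under the same islands in both E14.5 lists, ISC replicate 1 and AE replicate 1, so those values are repeats.

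The stretch with the highest lowest fold was 2.0 kb on chromosome 2 (146914601 to 146916600), beside a 9.4 kb island of E12.5 replicate 2 with a fold of 4.20. It had folds of 3.92 and 5.06 in E14.5, 4.58 and 2.53 in stem cells, and 2.68 and 2.64 in enterocytes. A 2.6 kb stretch on chromosome 12 (74129601 to 74132200) bordered a 10.0 kb island of E12.5 replicate 1 with a fold of 1.77 and had folds of 3.71 and 4.80 in E14.5, 3.68 and 2.19 in stem cells, and 2.17 and 2.18 in enterocytes. In both, the E14.5 values were above the AE values, the reverse of the order in the 8.2 and 5.2 kb stretches on chromosome 3. A 2.6 kb stretch on chromosome 7 (77510801 to 77513400) was less spread, with folds of 2.85 and 3.79 in E14.5, 2.35 and 2.28 in stem cells, and 2.24 and 2.19 in enterocytes. Folds of different lists carry each library's own enrichment, so the order between populations at 1 stretch is a description with no test.

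**Figure D5:**
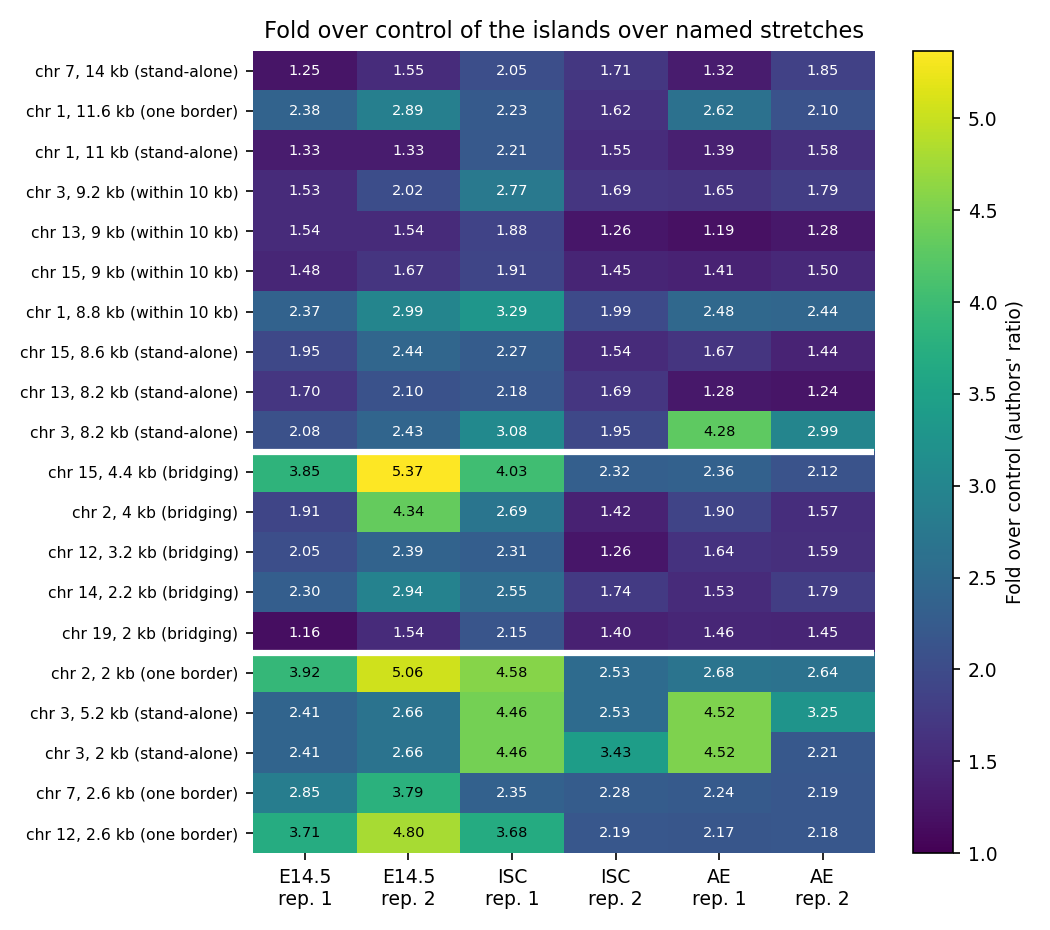
Fold over control, the authors' ratio, of the islands over the 10 longest stretches, the 5 longest bridging stretches and the 5 with the highest lowest fold, by list. Rows are stretches with their length in kb and their position relative to E12.5 islands, and columns are the 6 later lists. Values run from 1.16 in E14.5 replicate 1 on chromosome 19 to 5.37 in E14.5 replicate 2 on chromosome 15.

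Some of the stretches lay in groups. Joined across gaps of up to 50 kb they formed 781 groups, of which 561 were single stretches and 18 held at least 5. The largest group by summed length was on chromosome 15 (102844001 to 102971000), where 14 stretches covered 47.0 kb of 127 kb and 8 of them touched an E12.5 island. The lists called 26.0 and 39.7% of that interval at E12.5, 83.9 and 97.5% in E14.5, 100 and 95% in stem cells, and 91.3 and 85.7% in enterocytes. It also held 22.6 kb of core. Coverage was thus already partial at E12.5 and near complete later.

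The next largest group had no call at all at E12.5. On chromosome 13 (72426801 to 72505400), 8 stretches covered 29.6 kb of 78.6 kb, and none bordered an E12.5 island. The lists called 0 and 0% of the interval at E12.5, 56.2 and 72.3% in E14.5, 98.2 and 61.1% in stem cells, and 82.7 and 67.7% in enterocytes. The nearest core stretch was 254 kb away. Median folds over its stretches were 1.61 and 2.19 in E14.5, 2.64 and 2.02 in stem cells, and 1.78 and 1.88 in enterocytes. A group on chromosome 6 (52102601 to 52146200) held 5 stretches and 16.4 kb next to core, and its median folds were 1.52 and 2.10 in E14.5, 4.66 and 2.26 in stem cells, and 2.11 and 2.31 in enterocytes.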

How the data were processed

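H3K27me3 ChIP-seq of 4 populations with 2 libraries each was analysed. The submitters' processing notes name the build mm9 and, with no order or role, SICER 1.1, Bowtie 1.1.2, bcl2fastq 1.8.4 and SAMtools 1.2. Their parameters are not given in the sources used here. Each ChIP library came as 1 list of islands, called per replicate, with no header. From the values, the deposited columns are ChIP and control read counts, not normalized, the authors' p-value, the authors' ratio of ChIP to control (fold), and an FDR, which is an adjusted p-value. Both replicates of a population share a control, since islands with identical intervals have identical control counts. Because reads outside islands are not listed, no count test across libraries was possible.

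Islands were laid on 200 bp windows, and stretches were built as runs of windows with 1 pattern of calls. Values of a stretch are those of the longest island over it. Comparisons over lists used exact permutation tests in Python 3.11.15 with numpy 2.4.6, scipy 1.17.1 and pandas 2.3.3, tested on simulated data. The members, comparisons and lists were chosen with earlier results of these data known. Named stretches are the 10 longest, the 5 longest standing alone, the 5 longest bridging and the 5 of at least 2 kb with the highest lowest fold; of these, the text gives a selection, and the named groups are among those with the greatest summed length, both chosen after their values were seen. Alternatives were stricter FDR and fold, equal covered length, autosomes, minimum length, flank distance, wider merging and each library left out. Genes, base composition and sequences were not analysed here, because the reference tables at hand are on another build.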

Additional observations from a re-analysis of the deposited data

How the results depend on the processing

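The set itself depended on the calls. Its 1.93 Mb became 0.9 Mb in 413 stretches at an FDR of 1e-10 or less, 0.671 Mb in 387 at a fold of 1.5 or more, 0.531 Mb in 337 with that fold in the 6 later lists only, and 1.08 Mb in 670 with the lists at equal covered length, while 688 stretches had 1 kb or more. Leaving out each library gave 1.98 to 6.12 Mb and 1163 to 2040 stretches. The length could only grow here, since the rule then asks for fewer lists, so only the size of the change is informative. Without E12.5 replicate 2 it gave 6.12 Mb, without ISC replicate 2 3.25 Mb and without E14.5 replicate 1 3.24 Mb.

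The share of length touching an E12.5 island, 57.3%, was 55.2% and 59.2% under those folds, 66.4% at equal covered length and 53.7% for 1 kb or more. An island within 1, 5 or 10 kb gave 59.8%, 71.2% and 76.4%. Islands of E12.5 replicate 1 or 2 alone as flanks gave 11.6% and 48.9%, and leaving out libraries gave 32.0% (without E12.5 replicate 2) to 62.6%. The share of E14.5-gained length kept, 10.7%, was 6.73% at the stricter FDR, 5.83% and 5.71% under the folds, 10.3% at equal length, 10.0% for 1 kb or more, 11.1% on autosomes and 5.64% (without E14.5 replicate 1) to 18.1% (without ISC replicate 2) with libraries left out.

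The adult minus E14.5 fold rank of -1.2 reversed to 2.23 for 1 kb or more and 3.88 weighted by length, with -8.36 to 5.45 over libraries left out. The relative ChIP density, adult minus E14.5, turned from -0.113 to 0.178 over islands mostly inside the stretches. AE minus ISC turned from -0.0892 to 0.0159 at equal length, with -0.251 to 0.0685 over libraries left out. The contrast of stand-alone and bordering stretches kept its direction in every setting tried, at 13.1 (without E12.5 replicate 2) to 37.3 (equal covered length). Replicate numbers did not pair the lists (correlations of -0.103 to 0.0189), and with a replicate block the values were -1.2 (p = 1), -0.113 (p = 0.556) and -0.0892 (p = 1) by exact permutation, and p = 0.111 for the stand-alone contrast. Merging across 600 bp could change nothing, since the smallest gap was 1200 bp. The causes were not tested. The absolute depth of each library is unknown.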

Other observations

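The stretches called from E14.5 onward lay on all 19 autosomes, with none on X or Y. Chromosome 11 held 110 of them (8.92% of the length), chromosome 2 held 9.03% of the length and chromosome 16 held 17 (1.65%). On chromosome 15 the share of length was 7.10%, against 5.35% of the core called in all 8 lists, and on chromosome 5 it was 5.69%, against 8.74% of the core. These shares carry no test.

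The absence from X went with a near absence of X from the adult lists. X made up 0.432 and 1.39% of the covered length in the E12.5 lists, 2.95 and 2.89% in the E14.5 lists, 0.135 and 0.301% in the ISC lists and 0.286 and 0.271% in the AE lists. Stretches called at E14.5 alone included 203 on X, 10.6% of their length. The adults were males, and the sex of the embryos is not given, so stage and sex cannot be told apart on X.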
